A study of Mus musculus with 15 samples.

Results

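The genes described are 10 mouse genes of interferon-induced defence: the guanylate-binding proteins Gbp2, Gbp3, Gbp4, Gbp6 and Gbp7, the immunity-related GTPases Igtp, Irgm1, Irgm2 and Iigp1, and Mpeg1. They were taken by symbol from 46603 gene identifiers, and all 10 were among the 15997 genes with enough counts to be tested. Mpeg1 encodes perforin-2, a pore-forming protein of phagocytes, and is not a GTPase, so 9 of the 10 are GTPase genes. RNA-Seq counts were given for 15 samples of mouse embryonic fibroblasts (MEFs), cultured connective tissue cells of wild-type BALB/c embryos (10.5 days old), with 3 samples in each of 5 conditions. MEFD0 was sampled at day 0 before treatment, and MEFD3min and MEFD5min were untreated cells at day 3 and day 5 in growth medium, DMEM with 10% FBS. MEFD3plu had spent 3 days in growth medium to which the phosphodiesterase inhibitor IBMX (0.5 mM), insulin (10 µg/mL), the glucocorticoid dexamethasone (1 µM) and the PPAR gamma agonist rosiglitazone (10 µM) had been added, and MEFD5plu had received the same and then growth medium alone to day 5. The replicates are numbered 1, 3 and 4 in every condition, and while the study's methods speak in general of independent experiments, no source used here ties the numbered RNA-Seq samples to separate embryos or cultures, so p-values measure the spread between these samples, which may be technical.

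Interferons are secreted proteins that alert cells to infection. Type I interferons, the products of Ifnb1 and the Ifna genes, act through Ifnar1 and Ifnar2 on promoters with the interferon-stimulated response element (ISRE), while the type II interferon, the product of Ifng, acts through Ifngr1 and Ifngr2 on promoters with the gamma-activated site (GAS). Guanylate-binding proteins and immunity-related GTPases respond to both types and are classically studied as responses to Ifng, where they coat and break the vacuoles in which bacteria and parasites live, whereas Ifit, Oas, Mx and Isg15 are known mainly as type I effectors.

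Promoter windows were taken from RefSeq (GRCm38.p6), each with 250 bases before and 50 after a gene's start. They were searched for 7 of the 10 genes: Gbp2, Gbp3, Gbp7, Igtp, Irgm1, Irgm2 and Mpeg1. No window was available for Gbp4 or Gbp6. Iigp1 was left out of the search, so the counts that follow do not cover its promoter. An ISRE-type motif, GAAANNGAAA on either strand, was present in a window of 6 of these 7 genes (Mpeg1 held none), against 3.44% of all 32851 windows. A GAS-type motif, TTCNNNGAA, which reads the same on both strands, was present in 3 of the 7 (Gbp7, Igtp and Irgm2), against 8.30% of all windows, and 0.454% of all windows held both motifs. The 6 stretches below, 110 bases each, are shown because they hold these motifs, which are in capitals.
Gbp2: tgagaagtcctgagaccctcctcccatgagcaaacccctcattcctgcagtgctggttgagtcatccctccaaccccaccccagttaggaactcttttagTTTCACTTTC
Gbp3: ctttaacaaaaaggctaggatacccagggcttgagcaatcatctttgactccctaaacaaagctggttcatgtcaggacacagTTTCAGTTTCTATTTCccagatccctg
Gbp7: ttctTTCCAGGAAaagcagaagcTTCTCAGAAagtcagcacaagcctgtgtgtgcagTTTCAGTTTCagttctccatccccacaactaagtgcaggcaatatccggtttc
Igtp: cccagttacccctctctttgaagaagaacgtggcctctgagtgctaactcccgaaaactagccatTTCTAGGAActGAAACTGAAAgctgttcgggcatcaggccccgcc
Irgm2: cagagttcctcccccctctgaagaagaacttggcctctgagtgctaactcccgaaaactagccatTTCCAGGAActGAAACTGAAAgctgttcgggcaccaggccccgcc
Irgm1: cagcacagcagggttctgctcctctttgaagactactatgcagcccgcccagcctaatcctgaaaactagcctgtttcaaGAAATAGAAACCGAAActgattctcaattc
On GRCm38 these stretches are chr3:142620504-142620613 for Gbp2, chr3:142559916-142560025 for Gbp3 and chr3:142530226-142530335 for Gbp7, all on the plus strand. They are chr11:58199446-58199555 for Igtp and chr11:58214837-58214946 for Irgm2 on the plus strand, and chr11:48871421-48871530 for Irgm1 on the minus strand. In Gbp2, 12 of the 110 bases lie in an exon of a coding transcript that GENCODE M21 starts upstream of the RefSeq start. These 12, at the end of the stretch, hold the whole ISRE-type match. The Irgm2 stretch lies in an intron of a longer Irgm2 transcript. The other stretches lie before the coding transcripts of their genes, that of Irgm1 within the span the annotation gives to the gene as a whole. Counted from the start, the ISRE-type matches begin at base -59 in Gbp2, -53 in Gbp7, -34 in Igtp and -64 in Irgm2, and overlapping matches begin at -45 and -39 in Gbp3 and at -30 and -24 in Irgm1. In Igtp and Irgm2 the GAS-type match, at -45 and -75, stands just before the ISRE-type match, and aligned on these motifs the 110-base stretches of both genes had 100 identical bases (90.9%). For comparison, an ISRE-type match was found in 10 of 17 type I effector genes with a window and a GAS-type match in 3, and none of 5 type II responder genes with a window held either. These are matches of letters, and binding was not measured.

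All 10 are protein-coding genes whose reads were counted over their exons. Gbp7 (chr3:142530342-142550149), Gbp3 (chr3:142560026-142573209) and Gbp2 (chr3:142620602-142638008) lie together on chromosome 3, and Gbp4 (chr5:105115767-105139586) and Gbp6 (chr5:105270702-105293698) on chromosome 5. Igtp (chr11:58199556-58207591) and Irgm2 (chr11:58199618-58222782) overlap on chromosome 11, which also holds Irgm1 (chr11:48861968-48871683), while Iigp1 is on chromosome 18 and Mpeg1 (chr19:12460779-12465283) on chromosome 19. Gbp6 is uncertain as a single gene, because 70.7% of the 50-base stretches of its exons also occur in Gm43302, Gbp10 or Gbp4, and 29.0% of its exon bases lie in exons of Gm43302. The same share of 50-base stretches was 12.7% for Gbp7 and 11.8% for Igtp, and at most 7.83% for the other 7 genes. How reads that match several places were counted is not given in the sources used here.

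Total counts per sample lay between 24030558 and 37281126. Levels are given as CPM, read counts scaled to library totals that edgeR's TMM method had adjusted. All 10 fibroblast marker genes on the list, such as Col1a1 and Vim, were above the floor of 3 counts in every condition. They were not steady: 8 of 10 were lower in MEFD3plu than in MEFD3min (median log2 fold change -1.71, from -4.11 for Lum to 0.34 for Pdgfrb) and 7 of 10 were higher in MEFD3min than in MEFD0 (up to 8.80 for Lum). Of all genes tested, 28.0% were lower in the former comparison and 31.4% higher in the latter. In MEFD5plu against MEFD5min 2 of the 10 were higher and 3 lower (median -0.18), near the shares of all genes tested (26.3% and 24.2%). Without MEFD5min replicate 3, described below, 1 was higher and 4 were lower (median -0.29). The part of these shifts in the results that follow was not tested. The summed level of 8 adipocyte markers was 7553 to 11638 CPM in treated cells and 42.2 to 65.2 CPM in the other samples. MEFD5min replicate 3, the sample with the lowest total count, stood apart: its CPM of the 10 genes was 30.9% to 51.2% of the mean of the other MEFD5min samples (median 44.0%). Results that use MEFD5min are therefore also given without it for the 10 genes as a set and for several gene lists. Single values are in part given only with this sample.

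Across the 5 conditions the genes shared 1 pattern, seen in the plot of levels by sample. They were low at day 0, rose in untreated cells by day 3, and lay far below these untreated cells in cells under treatment. At day 5 they were lower than at day 3 in untreated cells and, except for Gbp4, highest in the cells from which the treatment had been withdrawn. In bulk RNA, fewer cells that express a gene and less RNA per cell cannot be told apart.

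**Figure D1:**
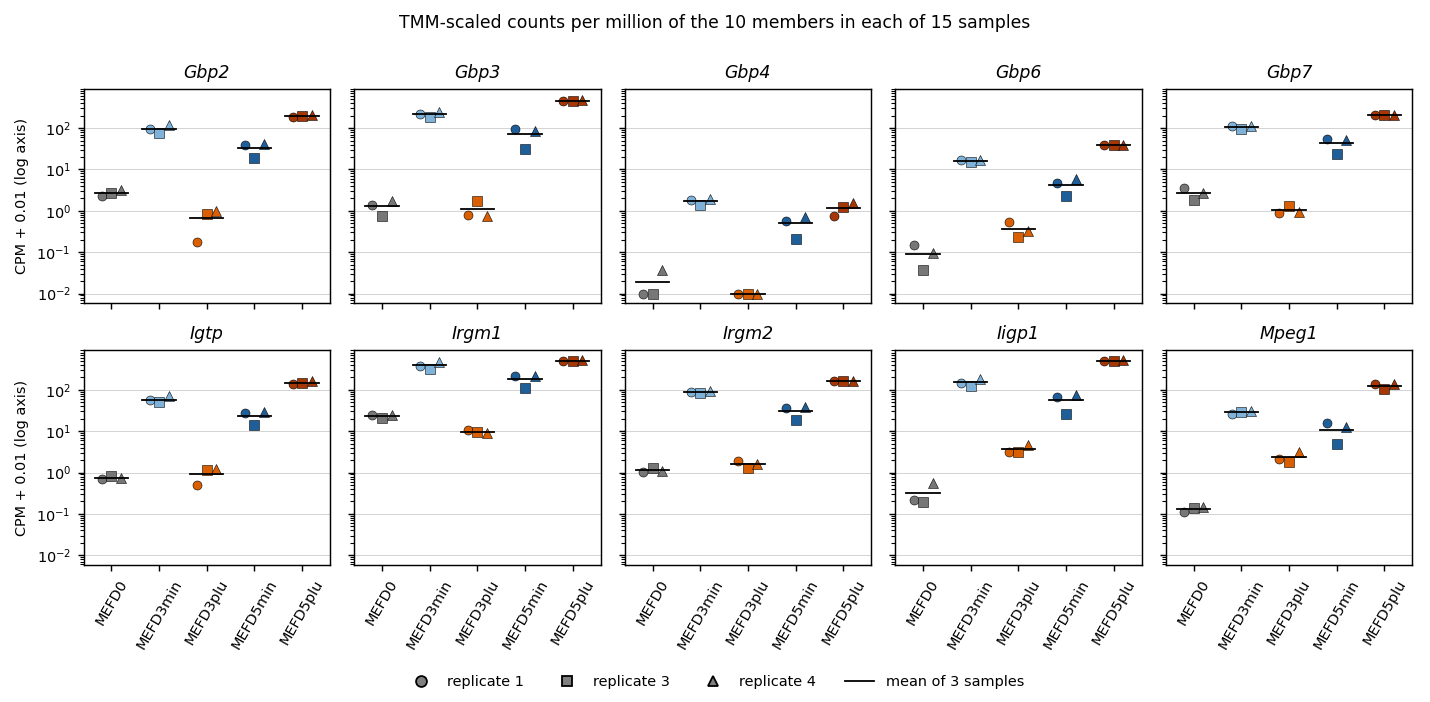
TMM-scaled CPM plus 0.01 (log axis) of the 10 genes in each of the 15 samples, with 1 symbol per replicate number and a line at the mean of 3 samples. MEFD3plu lies below MEFD3min and MEFD5plu above MEFD5min in every panel, and MEFD5min replicate 3 (square) is the lowest of its condition throughout.

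In MEFD3plu against MEFD3min, the comparison of treated with untreated cells at day 3, all 10 genes were lower with an adjusted p under 0.05 (edgeR quasi-likelihood test, Benjamini-Hochberg adjustment over all genes tested, here and throughout), where 28.0% of all genes tested were lower. Their median log2 fold change was -5.88 (-5.68 with Gbp4 taken at its bound), and that of all genes tested was -0.0006. In MEFD5plu against MEFD5min, the same comparison 2 days after withdrawal, all 10 were higher, where 26.3% of all genes tested were higher, with a median of 2.61. The sample ranges of both groups did not overlap for any of the 10 genes at day 3 (28.2% of all genes tested were below without overlap) or at day 5 (32.5% above without overlap).

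Gbp2, Gbp3 and Gbp7 are guanylate-binding proteins of the chromosome 3 cluster, and Gbp2 is among those that target pathogen vacuoles. Gbp2 was at 2.26, 2.68 and 3.21 CPM in MEFD0 (replicates 1, 3 and 4, in this order for all values that follow), at 96.1, 75.1 and 118.9 CPM in MEFD3min and at 0.171, 0.846 and 0.987 CPM in MEFD3plu. It was at 38.2, 18.8 and 42.3 CPM in MEFD5min and at 186.5, 192.6 and 207.1 CPM in MEFD5plu. All MEFD3plu samples were thus below all MEFD0 samples, and no conditions overlapped. At day 3 the log2 fold change was -7.13 ± 0.43 (SE; 139.6-fold lower, adjusted p = 3.52e-11), and at day 5 it was 2.55 ± 0.24 (5.87-fold higher, adjusted p = 3.72e-07).

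Gbp3 was at 1.34, 0.742 and 1.73 CPM in MEFD0, at 223.5, 185.8 and 246.9 CPM in MEFD3min and at 0.784, 1.69 and 0.733 CPM in MEFD3plu. It was at 93.0, 30.5 and 87.1 CPM in MEFD5min and at 458.1, 453.5 and 482.9 CPM in MEFD5plu. Treated cells at day 3 overlapped the starting cells. Gbp3 had a log2 fold change of -7.67 ± 0.44 at day 3 (204-fold lower, adjusted p = 8.15e-11), the largest decrease among the genes counted above the floor in MEFD3plu, and 2.72 ± 0.28 at day 5 (6.60-fold higher, adjusted p = 1.26e-06).

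Gbp7 was at 3.53, 1.78 and 2.68 CPM in MEFD0, at 113.2, 95.04 and 113.8 CPM in MEFD3min and at 0.887, 1.28 and 0.902 CPM in MEFD3plu. It was at 54.5, 23.7 and 52.9 CPM in MEFD5min and at 202.6, 202.6 and 209.9 CPM in MEFD5plu. As for Gbp2, treated cells at day 3 were below the starting cells without overlap. Its log2 fold change was -6.71 ± 0.35 (104-fold lower) at day 3 and 2.22 ± 0.22 (4.67-fold higher) at day 5.

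Gbp4 and Gbp6 lie in the chromosome 5 cluster. Gbp4 was the least abundant of the genes, with 0, 0 and 1 counts in MEFD0, 59, 50 and 57 in MEFD3min, 0 in all 3 samples of MEFD3plu, 20, 5 and 26 in MEFD5min and 25, 38 and 50 in MEFD5plu. MEFD3plu was therefore at least 18.4-fold lower than MEFD3min (against the floor of 3 counts per sample, adjusted p = 7.45e-07). At day 5 Gbp4 was 2.30-fold higher (log2 1.20 ± 0.44, adjusted p = 0.0299), the weakest of the day 5 changes, and without MEFD5min replicate 3 the value was 0.87 and did not pass the test. Averaged over the samples of MEFD3plu, 3 counts are worth 0.0936 CPM, which is the level that a count of 0 still allows, counting error only.

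Gbp6, uncertain for the shared sequence described above, was at 0.137, 0.0265 and 0.0838 CPM in MEFD0, at 16.5, 14.9 and 16.7 CPM in MEFD3min and at 0.512, 0.219 and 0.310 CPM in MEFD3plu. It was at 4.72, 2.30 and 5.76 CPM in MEFD5min and at 38.7, 38.9 and 38.6 CPM in MEFD5plu. Here, unlike in Gbp2 and Gbp7, treated cells at day 3 were above the starting cells. Gbp6 changed by a log2 fold change of -5.54 ± 0.39 (46.4-fold lower) at day 3 and 3.16 ± 0.21 (8.92-fold higher) at day 5.

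Irgm1, Irgm2 and Igtp are the regulators among the immunity-related GTPases, which sit on the cell's own membranes and keep the effector GTPases inactive there. Irgm1 had the highest starting level, with 24.2, 20.8 and 24.6 CPM in MEFD0, 369.8, 316.1 and 481.0 CPM in MEFD3min and 10.4, 9.31 and 9.22 CPM in MEFD3plu. It was at 216.4, 111.8 and 220.3 CPM in MEFD5min and at 510.5, 502.4 and 524.5 CPM in MEFD5plu. Treated cells at day 3 were below the starting cells in all 3 samples. Irgm1 had a log2 fold change of -5.33 ± 0.20 (40.4-fold lower) at day 3, within the standard errors of Iigp1, and of 1.49 ± 0.19 (2.80-fold higher) at day 5, where Gbp4 alone had a smaller one.

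Irgm2 was at 0.995, 1.27 and 1.09 CPM in MEFD0, at 89.4, 84.8 and 94.3 CPM in MEFD3min and at 1.84, 1.28 and 1.61 CPM in MEFD3plu. It was at 36.9, 18.3 and 37.7 CPM in MEFD5min and at 161.2, 160.4 and 168.2 CPM in MEFD5plu. Against untreated cells its log2 fold change was -5.83 ± 0.24 (56.7-fold lower, adjusted p = 2.20e-12) at day 3 and 2.39 ± 0.18 (5.25-fold higher, adjusted p = 1.58e-08) at day 5. Igtp, whose promoter stretch is nearly the same, was at 0.686, 0.795 and 0.726 CPM in MEFD0, at 56.6, 49.5 and 69.1 CPM in MEFD3min, at 0.477, 1.13 and 1.18 CPM in MEFD3plu, at 26.9, 13.9 and 29.3 CPM in MEFD5min and at 138.0, 148.7 and 160.1 CPM in MEFD5plu. Its log2 fold changes were -5.94 ± 0.32 (61.4-fold lower) and 2.66 ± 0.20 (6.34-fold higher), so the values of both genes lay within the sum of their standard errors at day 3 and at day 5. The exons of both genes overlap in part, over 8.01% of the exon bases of Igtp.

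Iigp1 is an effector immunity-related GTPase that loads onto parasite vacuoles. It was at 0.206, 0.186 and 0.558 CPM in MEFD0, at 146.5, 121.2 and 185.8 CPM in MEFD3min and at 3.17, 3.07 and 4.68 CPM in MEFD3plu. It was at 67.9, 25.7 and 76.4 CPM in MEFD5min and at 489.0, 511.4 and 523.6 CPM in MEFD5plu. Treated cells at day 3 were above the starting cells without overlap. Against untreated cells Iigp1 differed by a log2 fold change of -5.36 ± 0.32 (41.2-fold lower) at day 3 and 3.16 ± 0.27 (8.93-fold higher) at day 5.

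Mpeg1 had the smallest decrease at day 3 and the largest increase at day 5 of the 10 genes. It was at 0.103, 0.133 and 0.140 CPM in MEFD0 (3 to 5 counts), at 26.7, 29.6 and 30.2 CPM in MEFD3min and at 2.15, 1.75 and 3.10 CPM in MEFD3plu. It was at 15.5, 4.79 and 12.4 CPM in MEFD5min and at 136.3, 106.5 and 138.2 CPM in MEFD5plu. MEFD5plu exceeded every other sample, the MEFD3min samples included. Mpeg1 had a log2 fold change of -3.61 ± 0.31 (12.2-fold lower, adjusted p = 2.02e-08) at day 3 and 3.52 ± 0.25 (11.5-fold higher, adjusted p = 1.51e-08) at day 5.

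**Figure D2:**
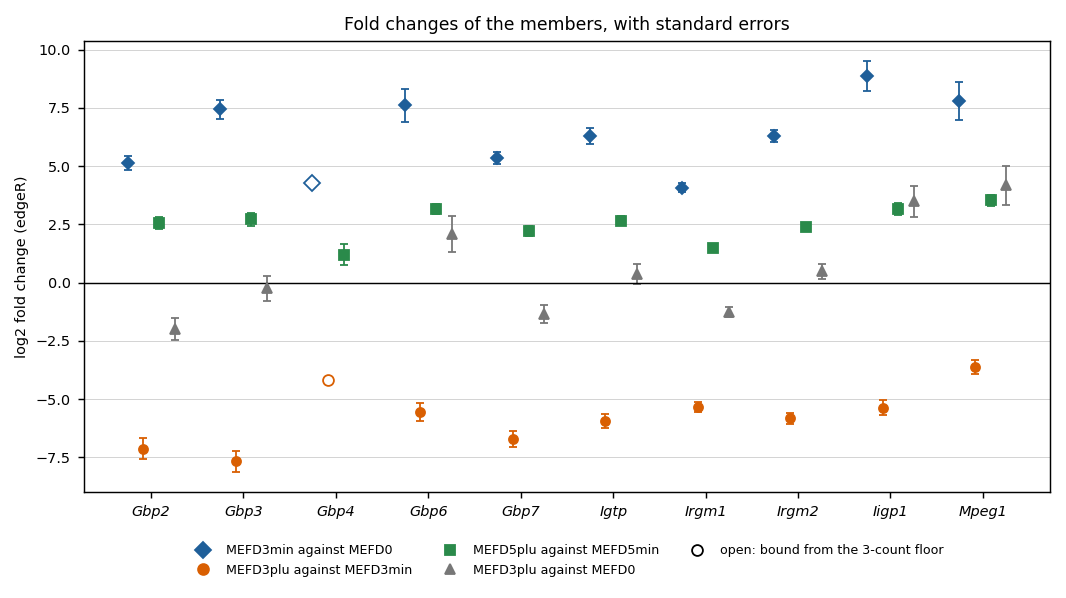
Log2 fold changes (edgeR) of the 10 genes in 4 comparisons, with bars for standard errors and open symbols for bounds against a condition at or under 3 counts (Gbp4 in MEFD3plu against MEFD0, with both conditions at the floor, is not drawn). MEFD3plu against MEFD3min is between -7.67 and -3.61 where it is not a bound, MEFD5plu against MEFD5min between 1.20 and 3.52, and MEFD3plu against MEFD0 lies on both sides of 0.

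The effect of treatment differed between the days for all 10 genes: the day 3 minus day 5 difference was negative with an adjusted p of at most 2.06e-06, where 25.8% of all genes tested had a negative difference that passed the test. It ranged from -10.40 for Gbp3 to -6.82 for Irgm1. Without MEFD5min replicate 3, all 10 differences passed and ranged from -10.04 to -6.56. At day 5 without this sample, 9 of the 10 genes were higher (with it, 26.3% of all genes tested were higher). The log2 fold changes ranged from 0.87 for Gbp4 to 3.19 for Mpeg1, with a median of 2.32.

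The untreated cells moved as well, and the comparisons that follow share the MEFD0, MEFD3min or MEFD3plu samples with each other. In MEFD3min against MEFD0 all 10 genes were higher, where 31.4% of all genes tested were higher. The log2 fold change ranged from 4.07 ± 0.19 for Irgm1 (16.8-fold) to 8.86 ± 0.64 for Iigp1 (465-fold), with Gbp4 at least 19.4-fold higher, and no gene had overlapping samples (31.1% of all genes tested were above without overlap). Without MEFD0 replicate 4, the sample with the most Iigp1 counts of its condition, the value of Iigp1 was 9.57. From day 3 to day 5 the untreated cells lost part of this: all 10 were lower in MEFD5min than in MEFD3min, where 21.5% of all genes tested were lower, by a log2 fold change from -1.89 for Gbp6 to -1.09 for Irgm1. Without MEFD5min replicate 3, all 10 were still lower, from -1.61 to -0.83. All 10 were nonetheless higher in MEFD5min than in MEFD0, where 24.5% of all genes tested were higher, from 2.98 for Irgm1 to 7.45 for Iigp1 (3.23 to 7.80 without that sample, and 8.16 for Iigp1 without MEFD0 replicate 4).

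Treated cells gave the reverse order in time. In MEFD5plu against MEFD3plu all 10 genes were higher, where 33.8% of all genes tested were higher, and the log2 fold change ranged from 5.73 ± 0.20 for Irgm1 (53.2-fold) to 8.76 ± 0.44 for Gbp3 (434-fold). In MEFD5plu against MEFD0 all 10 were higher, where 35.2% of all genes tested were higher, from 4.46 for Irgm1 to 10.61 for Iigp1 (11.32 without MEFD0 replicate 4). The MEFD5plu samples also lay above all MEFD3min samples for 9 of the 10 genes, where 32.9% of all genes tested did so. The ratio of mean CPM in MEFD5plu to that in MEFD3min was 1.32 for Irgm1, 3.36 for Iigp1 and 4.41 for Mpeg1, and 0.673 for Gbp4, whose samples overlapped.

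In MEFD3plu against MEFD0 the genes differed in direction, and their shares of higher and lower genes were near those of all genes tested. Gbp2 (log2 -1.98 ± 0.47, adjusted p = 0.000739), Gbp7 (-1.35 ± 0.38, adjusted p = 0.00435) and Irgm1 (-1.27 ± 0.21, adjusted p = 4.75e-05) were lower in treated cells than at the start, where 29.7% of all genes tested were lower. Gbp6 (2.08 ± 0.79, adjusted p = 0.0142), Iigp1 (3.50 ± 0.66, adjusted p = 2.46e-05, and 4.21 without MEFD0 replicate 4) and Mpeg1 (4.18 ± 0.84, adjusted p = 1.04e-05) were higher, where 33.9% of all genes tested were higher. Gbp3, Gbp4, Igtp and Irgm2 did not pass the test, with adjusted p between 0.19 and 0.717. The Gbp6 call rests on 1 to 15 counts per sample, and it did not pass without MEFD0 replicate 3 (1.63) or without MEFD3plu replicate 1 (1.73). Mpeg1 in MEFD3plu kept 8.10% of its mean CPM in MEFD3min, against 0.489% to 2.48% for the 8 GTPase genes with counts in MEFD3plu.

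Per kilobase of exon sequence the order of the genes differed between conditions. In MEFD0 Irgm1 led with 3.997 ± 0.362 CPM per kb (mean ± SD, n = 3), followed by Gbp2 with 1.08 ± 0.189 CPM per kb. Gbp7, Gbp3, Igtp and Irgm2 came next, each overlapping its neighbour, between 0.474 and 0.303 CPM per kb. In MEFD5plu Gbp3 led with 142 ± 4.85 CPM per kb. Irgm1 (88.2 ± 1.92) and Iigp1 (87.2 ± 3.01) followed and overlapped, as did Gbp2 (77.7 ± 4.19) and Igtp (73.7 ± 5.45), all in CPM per kb. Irgm2 (44.2 ± 1.16), Gbp7 (36.5 ± 0.745), Mpeg1 (29.3 ± 4.11), Gbp6 (6.51 ± 0.0228) and Gbp4 (0.155 ± 0.0515) came below them in this order without overlap, again in CPM per kb. Iigp1 was thus below Irgm2 without overlap in MEFD0 and above it without overlap in MEFD5plu.

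Of 19 further genes of the same families, 17 were tested (Gbp2b and Irgc1 had too few counts). All 17 were lower in MEFD3plu than in MEFD3min, where 28.0% of all genes tested were lower. Their median was -4.75 when the 14 genes at the floor in MEFD3plu are taken at their bound. Gbp5, a guanylate-binding protein known for inflammasome assembly, was at 0.875 ± 0.0841 CPM in MEFD3min (SD, n = 3), at the floor in MEFD3plu (at least 9.35-fold lower) and at 3.88 ± 0.577 CPM in MEFD5plu, and at day 5 it was higher by a log2 fold change of 2.67 ± 0.36. At day 5, 14 of the 17 genes were higher, where 26.3% of all genes tested were higher, with a median of 2.50. Gbp8, 9930111J21Rik1 and 9930111J21Rik2 did not pass the test. The largest of these changes were those of Gbp10 (at least 54.9-fold) and of Gm12250 (5.36 ± 0.39 on the log2 scale), while Ifi47 (2.62 ± 0.24), Gbp9 (1.96 ± 0.25), Gbp11 (3.30 ± 0.26), Tgtp1 (2.38 ± 0.28), Tgtp2 (2.50), Gm4951 (2.99 ± 0.22) and F830016B08Rik (2.76 ± 0.23) lay within the range of the 10 genes, as did Gm12185 (2.05 ± 0.25) and Gm5431 (3.31). Gm4070 (0.71 ± 0.22) and Gvin1 (1.32) rose least. Without MEFD5min replicate 3, Gvin1 did not pass the test either (0.97), which leaves 13 of 17 higher with a median of 2.16, and Gm4070 was at 0.43. Several of these genes are uncertain singly: 84.1% of the 50-base stretches of Gbp10 also occur in Gbp6, Gm43302 and others, as do 81.2% of those of Tgtp1 and 86.6% of those of Tgtp2, chiefly in each other, and 97.8% and 99.2% of those of Gm4070 and Gvin1.

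The 23 type I effector genes on the comparison list are antiviral genes of the Ifit, Oas, Mx and Isg15 kind. With treatment they moved in the same directions. All 23 were lower at day 3, where 28.0% of all genes tested were lower, with a median log2 fold change of -7.91 (-7.35 with 5 genes at their bound). All 23 were higher at day 5, where 26.3% of all genes tested were higher, with a median of 1.96. The 10 genes described here had medians of -5.88 (-5.68) and 2.61 in these comparisons. At day 3 the effectors ran from Oas1g, a sensor of double-stranded RNA (15.3 ± 0.799 CPM in MEFD3min and 0 counts in MEFD3plu, at least 163-fold lower), past Xaf1 (-7.91 ± 0.33) to Ifit2 (-3.66 ± 0.14). At day 5 they ran from Ifi27l2a (1.35 ± 0.24) past Mx2 (1.96 ± 0.27) to Mx1 (3.14 ± 0.26), the latter both genes of dynamin-like GTPases. Without MEFD5min replicate 3, all 23 were again higher at day 5, with a median of 1.65, beside 2.32 for the 10 genes. Oas1g has 45.7% of its 50-base stretches in common with Oas1a and Oas1b. The ranges of both groups of genes overlapped widely, and no test of the difference between the lists was made. In untreated cells, MEFD5min against MEFD3min, 18 of the 23 effectors were lower, where 21.5% of all genes tested were lower. Of the others, 1 was higher (Oas3, log2 1.45) and 4 did not pass the test. The median there was -0.88, beside -1.47 for the 10 genes. In MEFD3plu against MEFD0, 9 of the 23 effectors were lower, 1 was higher (Rsad2, 3.05 ± 0.78) and 13 did not pass the test, where 29.7% of all genes tested were lower and 33.9% higher.

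The type II responder list, genes known for induction by Ifng, had few counts. Of its 10 genes, Cd74, H2-Aa, H2-Eb1, Ido1 and Nos2 had too few counts to be tested, with at most 36 counts in any sample. Ciita, the regulator of MHC class II genes, had 1 to 37 counts per sample and did not pass the test at day 3 (0.95 ± 0.57, adjusted p = 0.167) or day 5. H2-Ab1, an MHC class II gene, was lower in treated cells at both days (-1.18 ± 0.48 and -1.66 ± 0.45), H2-DMa was higher at both days (1.39 ± 0.21 and 0.71 ± 0.23), and H2-DMb1 was lower at day 3 (-1.73 ± 0.20). Only Cxcl9, a chemokine, followed the pattern of the GTPase genes among the 5 tested: it had 66, 61 and 63 counts in MEFD3min, 0, 2 and 0 in MEFD3plu, 39, 1 and 13 in MEFD5min and 125, 108 and 132 in MEFD5plu, at least 21-fold lower at day 3 and higher by 2.84 on the log2 scale at day 5 (adjusted p = 0.000388; 2.37 without MEFD5min replicate 3). Ciita and H2-DMb1 did not pass the test at day 5, and the other calls of this list at day 5 held without that sample.

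**Figure D3:**
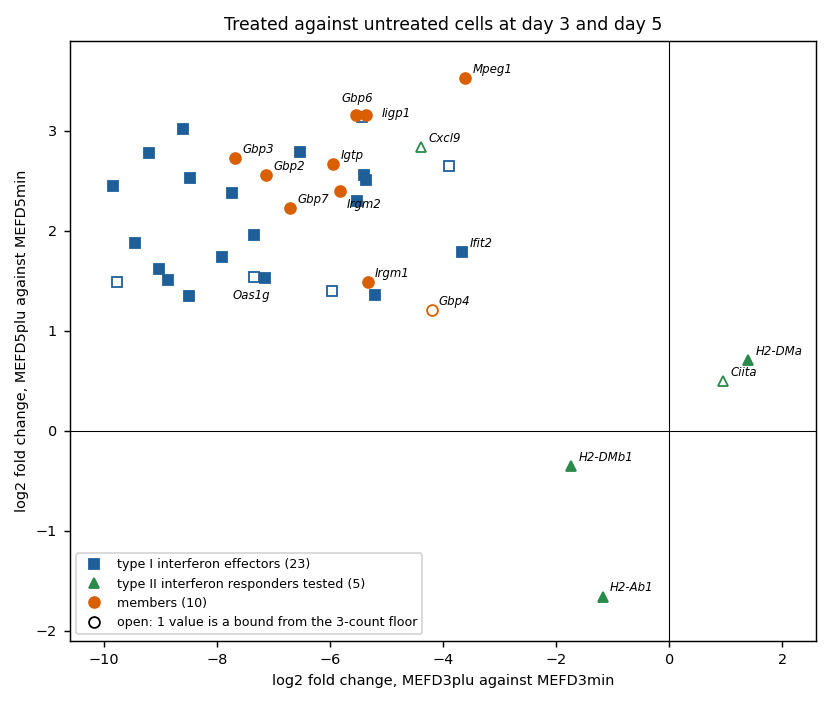
Log2 fold change of treated against untreated cells at day 3 (horizontal) and day 5 (vertical) for the 10 genes, 23 type I effectors and the 5 tested type II responders, with open symbols where a value is a bound. The 10 genes and all effectors lie in the upper left, with Mpeg1 at -3.61 and 3.52, and of the type II responders Cxcl9 lies there.

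The interferon genes themselves were near the floor, and none of 13 had enough counts to be tested over the 15 samples. Without MEFD5min replicate 3, Ifna4 and Ifnb1 passed the filter, but only through their counts in MEFD5plu. Their log2 fold changes in MEFD5plu against MEFD5min (2.52 for Ifna4 and 1.42 for Ifnb1) are therefore given without a test. Ifna4 was at the floor in MEFD5min, so its value depends on the fit's handling of such counts and is no bound. Ifnb1 had 0, 0 and 1 counts in MEFD0, 1, 4 and 1 in MEFD3min, 0 in all MEFD3plu samples, 5, 1 and 6 in MEFD5min and 8, 13 and 19 in MEFD5plu. Ifna4 had 2, 1 and 2 counts in MEFD3min, 2, 0 and 3 in MEFD5min, 11, 19 and 10 in MEFD5plu and 0 elsewhere. For both, MEFD5plu was above every other sample, and MEFD3plu held no count. Ifng had at most 1 count in any sample. Ifna2 had 5 counts in 1 MEFD5plu sample and at most 1 in any other, Ifne had up to 5, and Ifnz had 1 to 7 in every sample with no such order.

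**Figure D4:**
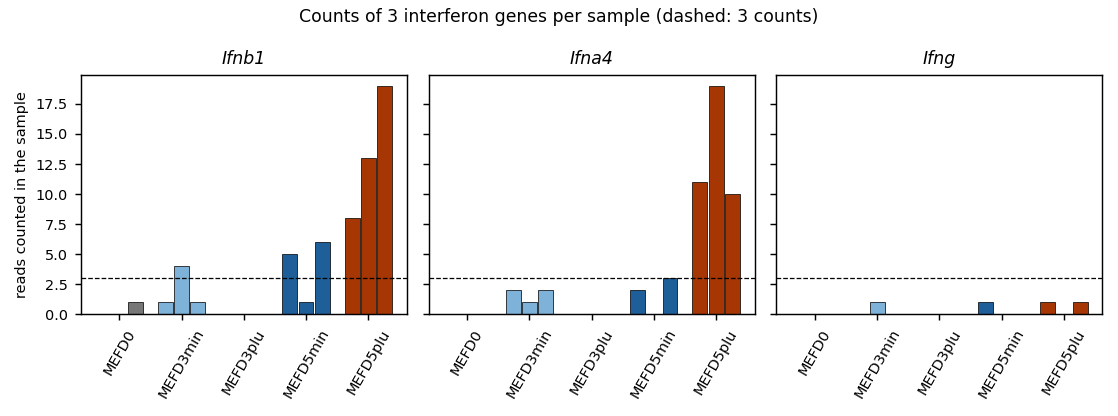
Read counts of Ifnb1, Ifna4 and Ifng in each of the 15 samples (bars, replicates 1, 3 and 4 within each condition), with a dashed line at 3 counts. Ifnb1 and Ifna4 are above 7 counts in the MEFD5plu samples and nowhere else, and Ifng has at most 1 count throughout.

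Of the genes of interferon reception and signalling, the receptor genes differed from the GTPase genes: Ifngr1, a subunit of the Ifng receptor, was higher in treated cells at day 3 (1.81 ± 0.08, where 28.0% of all genes tested were higher) and at day 5 (1.16 ± 0.08), while Ifngr2 was lower at both days (-0.37 ± 0.09 and -0.26 ± 0.09, where 24.2% of all genes tested were lower at day 5). Of the type I receptor, Ifnar1 (-0.16 ± 0.06) and Ifnar2 (-0.79 ± 0.08) were lower at day 3, and neither passed the test at day 5. The kinases moved little, with Jak1 at -0.21 ± 0.07, Jak2 at -0.39 ± 0.07 and Tyk2 at -0.12 ± 0.11 (not passing the test) at day 3, and none passing at day 5. The transcription factors Stat2 (-2.53 ± 0.20 and 1.44 ± 0.20), Irf9 (-3.91 ± 0.12 and 0.97 ± 0.11), Irf1 (-0.99 ± 0.10 and 1.11 ± 0.10) and Irf7 (-6.73 ± 0.31 and 2.0 ± 0.18) were lower at day 3 and higher at day 5. So were the inhibitors of signalling Socs1 (-0.97 ± 0.12 and 0.50 ± 0.11) and Usp18 (-8.21 ± 0.39 and 1.40 ± 0.21). Without MEFD5min replicate 3, these genes and Ifngr1 were again higher at day 5, and Ifngr2 did not pass the test (-0.24).

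Because Mpeg1 is known from macrophages, the macrophage markers stand beside it. Of 16, 9 had at most 3 counts in each of the 15 samples. Adgre1, which encodes F4/80, and the complement genes C1qa, C1qb and C1qc had 0 counts in every sample, and Ptprc, which encodes CD45, had 0 in all MEFD3plu and MEFD5plu samples and at most 6 in any sample. Csf1r had at most 13 counts and passed the test at neither day. The summed level of the 16 markers was 14.7 to 17.9 CPM in MEFD3min, 7.77 to 9.75 in MEFD3plu, 19.3 to 20.5 in MEFD5min and 14.7 to 16.5 in MEFD5plu, nearly all of it from Cd14, Mrc1, Cd68 and Lyz2. Cd68 did not pass the test at day 3 (-0.18 ± 0.19) and was lower in MEFD5plu than in MEFD5min (-0.996 ± 0.20), and Lyz2 was lower in MEFD3plu than in MEFD3min (-0.92 ± 0.29) and did not pass the test at day 5 (0.26 ± 0.28). Cd14 (-1.09 ± 0.18) and Mrc1 (-1.49 ± 0.21) were also lower at day 3. At day 5 Cd14 was lower (-0.53 ± 0.17) and Mrc1 did not pass the test (-0.08 ± 0.20). Without MEFD5min replicate 3, Cd68 was again lower at day 5 (-0.93), and Cd14 did not pass the test (-0.46). The summed markers were lower in MEFD3plu, as Mpeg1 was, and lower in MEFD5plu than in MEFD5min, where Mpeg1 was higher. The 11 lymphocyte markers summed to at most 0.892 CPM, and the 8 endothelial markers to 2.70 to 2.85 CPM in MEFD0, 10.4 to 12.8 at day 3 and 15.3 to 25.1 at day 5. The part of these markers in the results was not tested.

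Finally, the profile most like that of the GTPase genes was sought over all genes outside these families, as Pearson's r over the 15 samples to the mean of the standardized log2 CPM of the 9 GTPase genes. The 5 most alike were Isg15 (0.998), Trim12c (0.997), Slfn8 (0.997), Parp9 (0.995) and Dtx3l (0.995). The type I effectors had r between 0.827 and 0.998, with a median of 0.983, and Mpeg1 had 0.917. The samples share 5 conditions and the same libraries, so these values describe likeness of pattern only.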

How the data were processed

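RNA-Seq counts of 15 samples, 3 in each of 5 conditions, were used. The authors deposited raw counts of reads per Ensembl gene, without normalization, and the submitters' processing notes name TopHat2 2.1.0, HTSeq and DESeq2 with GRCm38 (mm10). The labels name the TruSeq RNA Library Prep Kit v2 and the study's methods a stranded kit, and the strand setting of the counting is not given in the sources used here, so a gene and an antisense partner may share reads. The genes and the comparison lists were chosen with earlier results of these data known.

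The filter filterByExpr of edgeR 4.0.16 (R 4.3.3) left 15997 genes, and TMM factors adjusted the library totals. All comparisons came from a single quasi-likelihood fit (glmQLFit, glmQLFTest) of the 15 samples with no covariates. Calls needed an adjusted p below 0.05 after Benjamini-Hochberg correction over all genes tested, and standard errors were taken from that fit. Where no sample of a condition exceeded 3 counts, the condition was treated as being at the floor, and its fold change was given as a bound from 3 counts per sample. CPM per kb use the exon length of GENCODE M21. With 3 samples against 3 an exact two-sided test cannot go below 0.1. Total counts lay between 24030558 and 37281126. Replicates of a condition differed by more than sampling noise (chi-square per degree of freedom 5.74 to 114).

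Named were all 10 genes, the other family genes, from the type I effector and type II responder lists the genes with the lowest, the highest and the most central fold change at day 3 and day 5, the interferon genes above 3 counts with Ifnb1 and Ifng, genes of interferon signalling (in part, the rest is not reported here), 5 macrophage markers and the 5 most alike profiles. Rsad2, Oas3, Gm43302, Col1a1, Vim, Cd14, Mrc1, C1qa, C1qb, C1qc, Lum and Pdgfrb were named after their values were seen. So were the type II responders outside that rule.

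Alternatives were DESeq2 1.42.0, a fit restricted to the conditions compared, size factors as in DESeq2, total counts alone, no filter, a threshold of 0.01, a required change of 2-fold, omission of each sample, and the replicate number as a block. For the comparisons over time, and for the gene lists without MEFD5min replicate 3, they were added after the data were seen. Samples with the same replicate number deviated together between MEFD3min and MEFD3plu (r of 0.143 to 0.360 in all 3 pairs) and not between MEFD5min and MEFD5plu (-0.0045 to 0.0538), and the numbers come from the sample titles. The edgeR fit was tested on simulated counts.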

Additional observations from a re-analysis of the deposited data

Results flagged for a closer look

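For each of the 10 genes the effect of treatment differed between the days by the interaction term of the edgeR fit (adjusted p of at most 2.06e-06), with the sign turned from lower at day 3 to higher at day 5. The day 3 effect minus the day 5 effect, on the log2 scale, was -9.68 for Gbp2, -10.40 for Gbp3, -10.03 for Gbp4, -8.69 for Gbp6 and -8.93 for Gbp7. It was -8.60 for Igtp, -6.82 for Irgm1, -8.22 for Irgm2, -8.52 for Iigp1 and -7.14 for Mpeg1. The value of Gbp4 depends on the fit's handling of a condition with 0 counts and is no bound.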

How the results depend on the processing

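For the 10 genes, all 264 counts of those higher or lower stayed within 1.5 times their value under every alternative that was run. Of their single values, 1305 kept their direction and side of the threshold, and 12 did not. The counts of the other gene lists are not among these, and some changed without MEFD5min replicate 3. With the replicate block, 10 genes were lower at day 3, 10 higher at day 5 and 10 had a negative difference between the days, so the block changed no call there. Gbp4 at day 5 (1.20) did not pass the test with total counts alone (1.05), without MEFD5min replicate 1 (1.29) or replicate 3 (0.87), without MEFD5plu replicate 3 (1.17) or replicate 4 (0.97), or at an adjusted p under 0.01. In MEFD3plu against MEFD0, Gbp6 (2.08) did not pass without MEFD0 replicate 3 (1.63), without MEFD3plu replicate 1 (1.73) or at 0.01, Irgm2 passed without the filter (0.48), and without MEFD0 replicate 4 the values of Gbp3 (-0.24) and Gbp4, neither of which had passed, turned to 0.07 and 0.0000. Leaving out 1 sample at a time there, Gbp3 ranged from -0.7319 to 0.0748 and Gbp4, at the floor in both conditions, from -2.3195 to 0.0000. Without MEFD0 replicate 4 the values of Iigp1 against MEFD0 rose by over 1.5 times in fold. The cause was not tested. Over such omissions the 10 genes ranged from -8.95 to -3.44 at day 3 and from 0.87 to 3.85 at day 5. Total counts alone moved the median of all genes at day 5 to -0.15. Gbp4, with at most 59 counts, Gbp6 in MEFD0 and the interferon genes are limited by depth.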

Other observations

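Among the immunity-related GTPase genes, those that passed the test as higher in treated cells at day 3 than at the start lay on 1 chromosome, a pattern noticed after the values were seen and given without a test. Iigp1 (3.50 ± 0.66 on the log2 scale, MEFD3plu against MEFD0, and 4.21 without MEFD0 replicate 4), Gm4951 (at least 14.0-fold) and F830016B08Rik (at least 8.38-fold) are all on chromosome 18, and each had an adjusted p under 0.05. Igtp, Irgm2 and Irgm1 on chromosome 11 were at 0.35, 0.48 and -1.27 in the same comparison, where the samples of Irgm2 did not overlap and it passed the test without the filter, and Ifi47, another immunity-related GTPase, was at -3.45 ± 1.23.

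9930111J21Rik1 and 9930111J21Rik2, genes of the same families with 83.2% and 59.8% of their 50-base stretches also in other genes (each other among them), were below their starting level in treated cells at day 3 by at least 4.27-fold and at least 25.2-fold. They were also among the 3 family genes that did not pass the test at day 5 (log2 fold changes of -0.0001 and 0.04), where 9930111J21Rik2 was at 18.3 ± 6.07 CPM in MEFD5min and 18.8 ± 2.26 CPM in MEFD5plu (SD, n = 3).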
